A study of Mus musculus with 4 samples.

Results

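The genes described here are 10 members of the hypoxia response, chosen by symbol: the oxygen-regulated factors Hif1a and Epas1, the prolyl hydroxylases Egln1 and Egln3, and the target genes Bnip3, Ankrd37, Ddit4, Adm, Pdk1 and Ldha. All 10 were found among the 32285 genes of the deposited tables, and each had at least 118 unique molecular identifiers (UMIs, counts of captured RNA molecules) over the kept cells. Single cells of male C57BL/6N mice, 10 months old, were profiled in 4 libraries, each from the pooled cortical tissue of 4 to 5 animals. The groups were sham surgery with an isotype control antibody, and stroke by dMCAO (occlusion of the distal middle cerebral artery) with the isotype control, with an antibody to the endothelial adhesion molecule VCAM1, or with an antibody to VLA4, the leukocyte integrin that binds it. Antibody was given for 10 weeks in every group, sham included. Tissue was the lesion core with about 2 mm of cortex around it, and cells were stained for the endothelial marker CD31 and the leukocyte marker CD45. Which stained fractions were collected is not given in the sources used here. The label names the infarct core for the sham tissue too. Where 4 values follow each other, the first is from the sham library, the next from stroke with the isotype, then anti-VCAM1 and last anti-VLA4.

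Cells answer low oxygen through the hypoxia-inducible factors. In the presence of oxygen, prolyl hydroxylases such as those encoded by Egln1 and Egln3 modify the alpha subunits encoded by Hif1a and Epas1, which are then ubiquitinated through the von Hippel-Lindau protein and degraded. When oxygen falls the subunits persist, pair with the product of Arnt and bind hypoxia response elements of target genes. Because this control acts on the proteins, the RNA of Hif1a or Epas1 does not report how active the pathway is, while the RNA of targets is its usual readout. In brain, Epas1 is known as a gene of vascular cells and Hif1a is expressed broadly.

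By the GENCODE M21 annotation of GRCm38, the members lie on 6 chromosomes, and the ID and gene body of each is given here. The factor genes are Hif1a (ENSMUSG00000021109, chr12:73901375-73947530) and Epas1 (ENSMUSG00000024140, chr17:86753700-86833410). The hydroxylase genes are Egln1 (ENSMUSG00000031987, chr8:124908587-124949324) and Egln3 (ENSMUSG00000035105, chr12:54178981-54203860). Of the targets, Adm (ENSMUSG00000030790, chr7:110627661-110629820), Bnip3 (ENSMUSG00000078566, chr7:138890836-138909519) and Ldha (ENSMUSG00000063229, chr7:46841475-46855627) share a chromosome. Ankrd37 (ENSMUSG00000050914, chr8:45996902-46005707), Ddit4 (ENSMUSG00000020108, chr10:59949669-59951834) and Pdk1 (ENSMUSG00000006494, chr2:71873224-71903858) lie elsewhere.

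RefSeq promoter windows of the GRCm38.p6 build, from 250 bases before to 50 after a start site, were at hand for 9 of the 10 members, in 11 windows. These were searched on both strands for ACGTG and GCGTG, the core letters of the hypoxia response element. Of 32851 windows of this length, 43.8% held at least 1 match, 20.6% at least 2 and 3.86% at least 4. Counted by window in the same way, 10 of the 11 member windows held at least 1 match and 9 at least 2. Counted by gene, 9 of 9 members had a match, 8 had at least 2 in 1 window, Ldha had 7, Bnip3 5 and Ankrd37 4. The members were chosen as hypoxia response genes, so these counts are a description and no test. A CACGTG palindrome counts on both strands, and a match says nothing about binding. Upstream stretches of 250 bases are printed next for 4 of the 5 targets whose RNA was higher in both blockade libraries below: Adm and Ankrd37, which had the largest ratios under anti-VLA4, and Bnip3 and Ldha, which hold the most matches. Ddit4, the other one, had 2 matches and is not printed. The stretches read 5′ to 3′ up to the start site on the gene's own strand, and capitals mark the matches, with CACGT and CACGC standing for matches on the opposite strand. The bases after the start site are not printed, and 2 of the 7 matches of Ldha lie there.
Adm (chr7:110627407-110627656, + strand): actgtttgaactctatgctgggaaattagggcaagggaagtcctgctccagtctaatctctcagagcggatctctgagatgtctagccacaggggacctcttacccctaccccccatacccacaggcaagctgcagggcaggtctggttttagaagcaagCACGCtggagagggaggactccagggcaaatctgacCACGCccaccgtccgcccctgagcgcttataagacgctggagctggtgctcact
Ankrd37 (chr8:45999851-46000100, - strand): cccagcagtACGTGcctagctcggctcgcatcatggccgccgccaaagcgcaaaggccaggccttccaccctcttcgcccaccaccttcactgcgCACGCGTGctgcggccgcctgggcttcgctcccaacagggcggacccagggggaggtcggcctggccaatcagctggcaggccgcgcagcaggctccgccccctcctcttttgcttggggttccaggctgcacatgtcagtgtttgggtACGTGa
Bnip3 (chr7:138909507-138909756, - strand): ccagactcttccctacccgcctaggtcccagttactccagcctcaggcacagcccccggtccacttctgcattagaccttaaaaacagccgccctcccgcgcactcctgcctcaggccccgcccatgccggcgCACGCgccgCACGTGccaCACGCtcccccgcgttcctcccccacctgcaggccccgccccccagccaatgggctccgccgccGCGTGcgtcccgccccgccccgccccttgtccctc
Ldha (chr7:46845554-46845803, + strand): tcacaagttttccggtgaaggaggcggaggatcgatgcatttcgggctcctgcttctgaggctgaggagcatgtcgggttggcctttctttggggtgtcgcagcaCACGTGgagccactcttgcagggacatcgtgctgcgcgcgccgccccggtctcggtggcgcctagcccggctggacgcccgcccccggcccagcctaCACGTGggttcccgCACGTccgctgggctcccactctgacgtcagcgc

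The kept cells numbered 1514, 2832, 4657 and 6209, with median UMIs per cell of 5456.5, 5090, 4515 and 4719. There were no replicate libraries, so a difference here is one between 2 libraries and has no replicate check. Intervals are given at 95% and hold counting error alone. The sham and stroke isotype libraries shared 53 cell barcodes, 3.50% of the smaller, against 1 to 7 for the other pairs, and results that rest on them are also given without those cells. Clusters were named from marker genes, with the members left out of the clustering. Endothelial-like cells (547, 649, 2390 and 3074) had a summed level of endothelial markers between 20781 and 22016 CPM (UMIs of a gene or list when those of the class are scaled to 1000000), and microglia-like cells (692, 1481, 1813 and 2459) had between 37.0 and 104.0. T cell-like (73, 248, 110 and 202) and border macrophage-like cells (118, 189, 59 and 90) were the other classes large enough to compare. Levels are CPM of a class total, ratios are log2 ratios of CPM with a pseudocount of 1 CPM, and a gene was called when it passed 1.5-fold with at least 50 UMIs over the 2 libraries compared. For the stroke comparison the isotype library of stroke was divided by that of sham, and for each antibody the antibody library was divided by the isotype library of stroke, so the comparisons share libraries.

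Each factor had its own distribution over the classes. Epas1, which encodes HIF-2 alpha, was at 1446, 1326, 1187 and 1218 CPM in endothelial-like cells, and at 881 and 945 CPM in pericyte-like cells of the blockade libraries, the 2 with at least 20 such cells. Astrocyte-like cells came next, at 222 to 404 CPM in 3 libraries, and the ranges of these 3 classes did not overlap. In microglia-like cells Epas1 was at 1.17, 0.860, 3.78 and 4.93 CPM. After each cell was thinned to 1000 UMIs, 72.5%, 69.6%, 65.4% and 67.6% of endothelial-like cells held an Epas1 UMI (unthinned 94.1%, 92.4%, 93.8% and 94.5%). The thinned share in microglia-like cells, the class with the lowest level, was 0.145%, 0, 0.559% and 0.413%, where 3 of the 1443 thinned cells, the limit taken for a count of 0, is 0.208% and the exact upper bound is 0.255%. Unthinned, 0.867%, 0.473%, 1.43% and 2.07% of microglia-like cells held an Epas1 UMI. Median depth was 3789 to 4383 UMIs in the endothelial-like and 5192 to 7342 in the microglia-like cells.

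Hif1a, which encodes HIF-1 alpha, was spread far more evenly. It was at 118, 158, 153 and 142 CPM in microglia-like cells and at 116, 124, 114 and 109 CPM in endothelial-like cells. T cell-like cells held 137, 173, 130 and 106 CPM, and border macrophage-like cells 87.6, 104, 67.8 and 90.2 CPM. Ordered by mean level, microglia-like cells came first, followed by T cell-like, endothelial-like, pericyte-like, B cell-like, border macrophage-like and astrocyte-like cells, and the ranges over libraries overlapped between every pair of neighbours in that order. Only the plasma cell-like cells, seen in enough number in 1 library, lay apart at 13.5 CPM.

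The hydroxylase genes stood at different levels. Egln1, which encodes the main oxygen-sensing hydroxylase PHD2, was at 105, 92.8, 86.5 and 89.3 CPM in endothelial-like cells and at 32.8, 29.7, 29.7 and 32.0 CPM in microglia-like cells. Egln3, which encodes PHD3 and is itself a classical HIF target, was close to absent: 0, 0, 2 and 4 UMIs in all endothelial-like cells, and 2, 29, 17 and 33 UMIs in all microglia-like cells. With 3 UMIs of the class total as the limit that a count of 0 allows, Egln3 in endothelial-like cells could be at up to 1.195 CPM in sham with isotype and 1.039 CPM in stroke with isotype.

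Of the targets, Bnip3 (a mitophagy receptor), Ankrd37 (an ankyrin repeat protein), Ddit4 (REDD1, an inhibitor of mTORC1), Adm (adrenomedullin, a vasodilator peptide) and Ldha (lactate dehydrogenase A) had higher levels in endothelial-like than in microglia-like cells of every library. Bnip3 was at 88.0, 92.1, 121 and 133 CPM in endothelial-like cells against 23.6 to 29.4 CPM in microglia-like cells. Ankrd37 was at 60.5, 55.1, 69.9 and 113 CPM in endothelial-like cells, and was at most 15.0 CPM in any library of the microglia-like, border macrophage-like and T cell-like cells. Ddit4 was at 47.0, 51.6, 72.3 and 74.2 CPM in endothelial-like cells and at 8.39, 6.13, 9.94 and 6.95 CPM in microglia-like cells. Adm was at 16.7, 17.7, 25.8 and 38.6 CPM in endothelial-like cells and at 12.8 and 41.6 CPM in the pericyte-like cells of the blockade libraries. No Adm UMI was counted in any T cell-like or border macrophage-like cell of the 4 libraries. Ldha was at 300, 360, 447 and 486 CPM in endothelial-like cells, 341 to 344 CPM in pericyte-like cells, 157 to 212 CPM in T cell-like cells and 73.2 to 91.3 CPM in microglia-like cells.

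Pdk1, which encodes a kinase that keeps pyruvate out of the mitochondrial acetyl-CoA pool, ran the other way. It was at 75.9, 68.9, 66.7 and 81.9 CPM in microglia-like cells, above the range of every other class. Endothelial-like cells had the lowest mean of all classes, at 13.5, 13.9, 10.7 and 9.79 CPM. Hif1a was the other member with its highest mean level in microglia-like cells, there with overlap between classes.

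**Figure D1:**
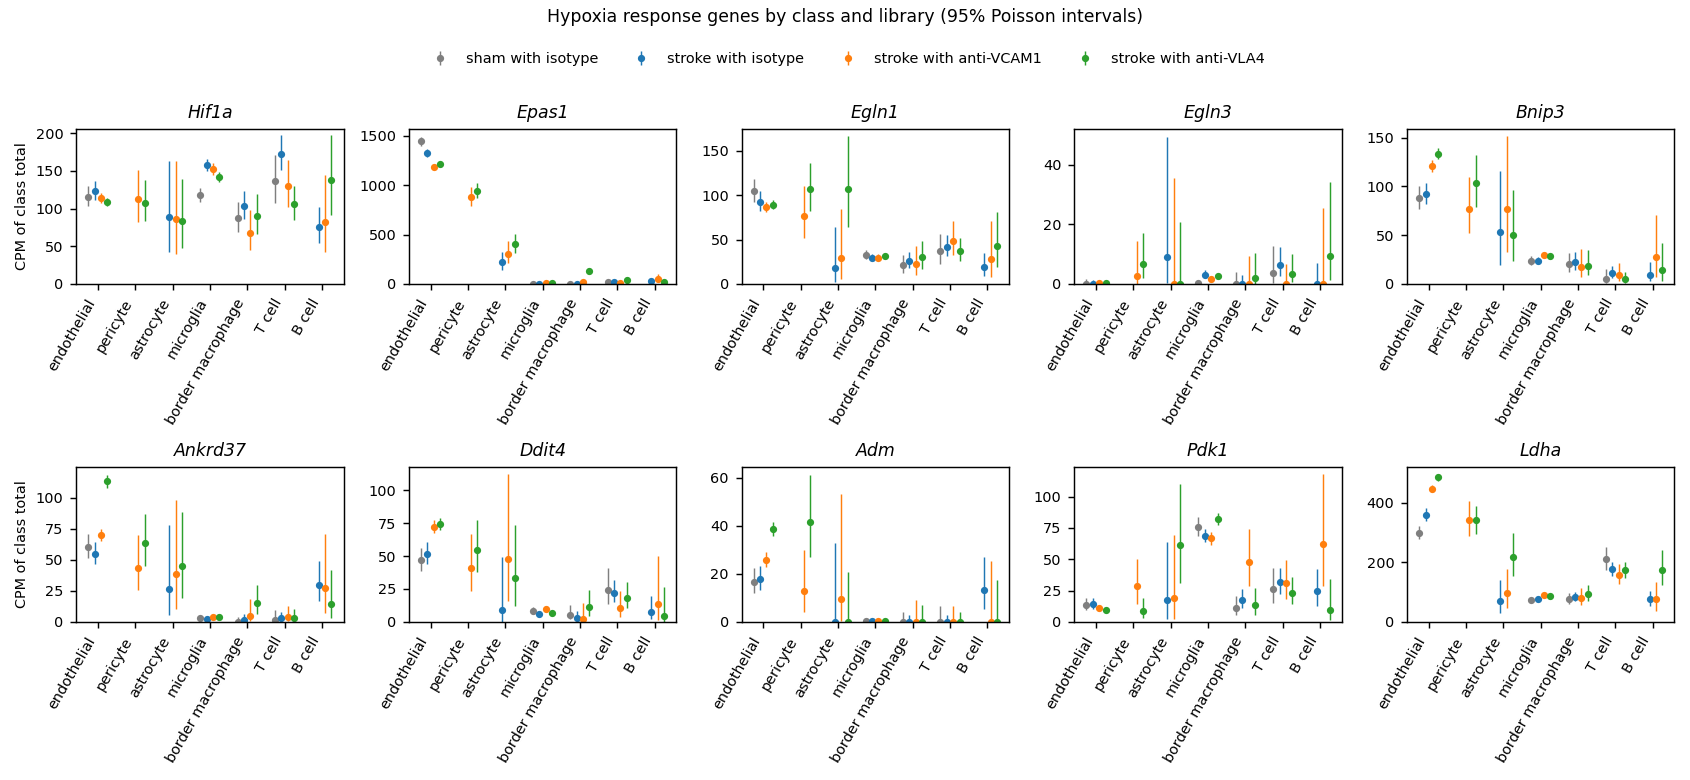
Level of each member (CPM of the class total, linear axis from 0) by class, with 1 point per library in 4 colours and bars for the 95% Poisson interval. Libraries with fewer than 20 cells of a class are left out, Epas1 stands above 1187 CPM in every endothelial-like total, and Pdk1 is highest in microglia-like cells.

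Likeness of pattern was taken as Pearson's r of log2 CPM over 19 sums of 6 classes, which share libraries and depth, among 12173 genes. Epas1 was most like Itm2a (r = 0.994), Itih5 (0.992) and Pakap (0.992). Ankrd37 was most like Cldn5 (0.965), the tight junction protein of brain endothelium. Among members, Adm and Ankrd37 had r = 0.933 and Ddit4 and Ldha 0.956, while Epas1 and Hif1a had −0.129 and Epas1 and Pdk1 −0.664. The gene nearest to Hif1a, Zcchc4, reached only 0.846.

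The first comparison asked how the genes stood late after stroke, and in endothelial-like cells the differences were small. None of the 9 measured members passed 1.5-fold, where 2.47% of the 8896 genes tested passed upward and 2.98% downward. Their median log2 ratio was 0.07, beside −0.04 over all genes tested. Ldha was higher, at 300 CPM in sham and 360 CPM in stroke with isotype, a log2 ratio of 0.26 (0.13 to 0.40). Epas1 was lower, with a ratio of −0.12 (−0.19 to −0.06). For the other 7 the interval held 0: Hif1a 0.09, Egln1 −0.18, Bnip3 0.07, Ankrd37 −0.13, Ddit4 0.13, Adm 0.07 and Pdk1 0.03. The widest of these, for Pdk1, ran from −0.66 to 0.74, so a change of 1.5-fold was within its counting error. Without the cells that share barcodes, Ldha was at 0.27.

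In microglia-like cells Hif1a was the member with the clearest stroke difference. Its level was 118 CPM in sham with isotype (109 to 128) and 158 CPM in stroke with isotype (150 to 166), a log2 ratio of 0.42 (0.28 to 0.56), or 1.34-fold. The antibody libraries, both also from mice with stroke, stood at 153 and 142 CPM, so the sham library was the lowest of the 4 and its interval touched none of the others. The thinned share of microglia-like cells with a Hif1a UMI was 7.98%, 12.1%, 13.3% and 11.4% (unthinned 47.7%, 50.2%, 45.8% and 42.7%), against 7.83%, 12.7%, 7.02% and 6.98% among border macrophage-like cells, lowest in Hif1a of the classes compared, whose median depth was 5077 to 6293 UMIs. At 1000 UMIs a cell Hif1a thus did not stand above that class in sham or stroke with isotype. Without cells that share barcodes the ratio was 0.42, and with the makeup of clusters held fixed it was 0.35. It did not pass 1.5-fold, as did none of the 6 measured members, where 2.21% of 10677 genes passed upward and 1.74% downward. The members' median was −0.06 and that of all genes −0.04. Egln3 had 2 UMIs in sham and 29 in stroke with isotype, too few to be measured by the rule of 50 UMIs. Its levels were 0.390 CPM (0.047 to 1.41) and 3.12 CPM (2.09 to 4.48), a ratio of 1.57 (1.01 to 6.11). At such levels the pseudocount of 1 CPM pulls the ratio towards 0, while the interval holds no pseudocount. Egln3 was higher in 6 of 6 clusters, with no single interval above 0.

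**Figure D2:**
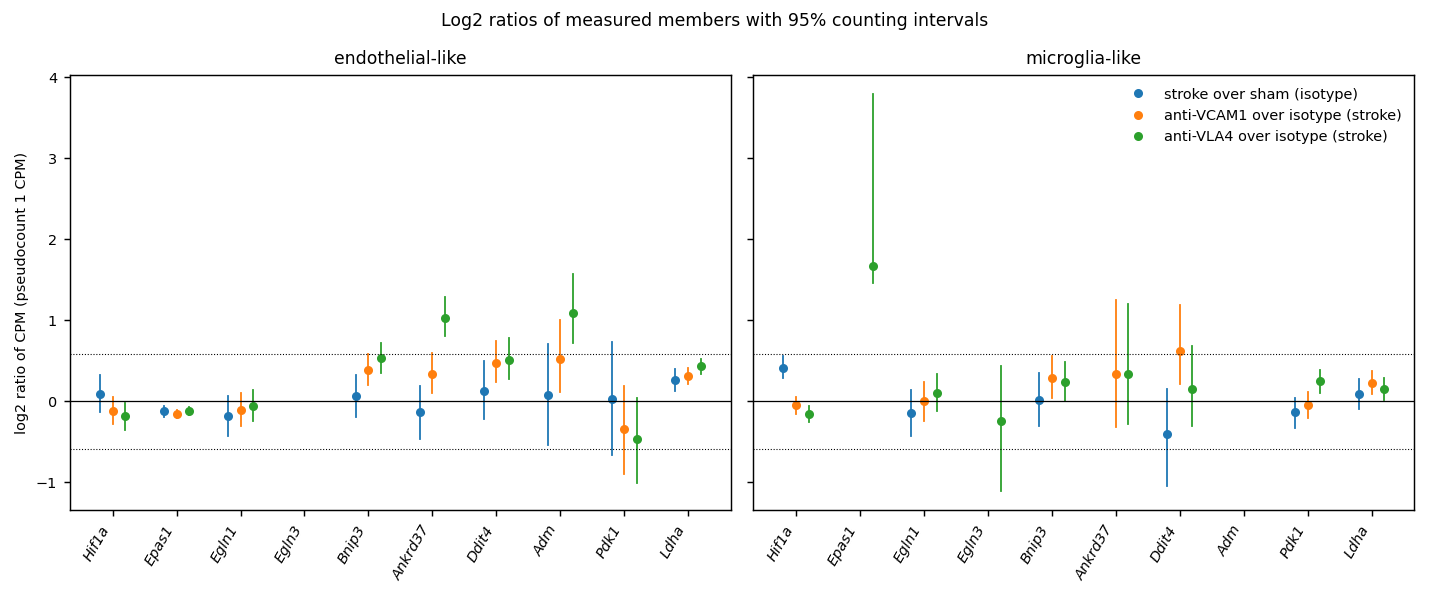
Log2 ratios (pseudocount 1 CPM) of members with at least 50 UMIs over the 2 libraries, in endothelial-like and microglia-like cells, with 3 colours for the 3 comparisons, bars for the 95% counting interval and dotted lines at 1.5-fold. Adm and Ankrd37 lie past the upper line under anti-VLA4 in endothelial-like cells, and Hif1a lies above 0 in the stroke comparison in microglia-like cells.

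The other comparisons set each antibody over isotype after stroke. In endothelial-like cells 5 of the 6 targets were higher under both antibodies, while the factors and Egln1 differed little. Of all genes tested, 44.3% lay above 0 under anti-VCAM1 and 43.1% under anti-VLA4, and ratios also went with gene span, as given further on. Adm was at 17.7 CPM in stroke with isotype (13.2 to 23.2), 25.8 CPM with anti-VCAM1 (23.0 to 28.9) and 38.6 CPM with anti-VLA4 (35.6 to 41.8). Its ratios were 0.52 (0.11 to 1.01) and 1.08 (0.71 to 1.57), the last being 2.12-fold. Ankrd37 was at 55.1 CPM (46.9 to 64.3), 69.9 CPM (65.2 to 74.9) and 113 CPM (108 to 119), with ratios of 0.34 (0.10 to 0.60) and 1.03 (0.81 to 1.29), or 2.04-fold under anti-VLA4. For both genes the sham and stroke isotype libraries overlapped in their intervals, and the anti-VLA4 library stood above the other 3 with no overlap.

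The mitophagy receptor Bnip3 had ratios of 0.39 (0.20 to 0.59) under anti-VCAM1 and 0.53 (0.35 to 0.72) under anti-VLA4. Ddit4 had ratios of 0.48 (0.23 to 0.75) and 0.52 (0.28 to 0.78), and Ldha of 0.31 (0.22 to 0.41) and 0.43 (0.34 to 0.53). These 3 lay on the same side under both antibodies without passing 1.5-fold. Pdk1, the sixth target, had ratios of −0.34 (−0.89 to 0.19) and −0.46 (−1.01 to 0.04), from 40 UMIs in stroke with isotype. Epas1 was lower by a small amount in both, at −0.16 (−0.21 to −0.11) and −0.12 (−0.17 to −0.07), a side that changed to 0.01 and 0.06 when the span trend given further on was taken out. Hif1a was at −0.12 (−0.29 to 0.06) and −0.18 (−0.35 to −0.02). Egln1 was at −0.10 and −0.06, with 0 inside both intervals.

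Under anti-VLA4, 2 of 9 measured members passed 1.5-fold, Adm and Ankrd37, where 2.16% of 10846 genes passed upward and 7.43% downward. Under anti-VCAM1 none of 9 passed, where 2.14% of 10502 genes passed upward and 6.27% downward. The members' medians were 0.43 and 0.31, beside −0.07 and −0.05 over all genes tested. With TMM scaling, which shifts every ratio of a class together, 4 members passed under anti-VLA4 and 1 under anti-VCAM1. Removing the trend of the ratio with gene span lowered the anti-VLA4 median to 0.23. That trend was present across all genes of the class: the median ratio under anti-VLA4 was 0.22 in the shortest of 20 bins of span and −0.49 in the longest, and Adm and Ddit4 each span 2.16 to 2.17 kb while Epas1 spans 79.7 kb. With it removed, Adm was at 0.80, Ankrd37 at 0.84, Bnip3 at 0.46, Ldha at 0.32 and Ddit4 at 0.23 under anti-VLA4. Under anti-VCAM1 the bins ran from 0.24 to −0.43, and removing the trend took Adm from 0.52 to 0.23, Ankrd37 from 0.34 to 0.14, Ddit4 from 0.48 to 0.19, Bnip3 from 0.39 to 0.31 and Ldha from 0.31 to 0.21. The share of thinned endothelial-like cells with a UMI was 2.07%, 2.12%, 3.03% and 3.61% for Adm and 6.21%, 6.05%, 7.35% and 9.52% for Ankrd37 (unthinned 6.22%, 5.86%, 7.45% and 11.7%, and 17.4%, 13.7%, 20.5% and 30.5%), and T cell-like cells, the lowest class, had 0 for Adm and 0 to 0.510% for Ankrd37. The thinned Adm intervals of stroke with isotype (1.14% to 3.61%) and anti-VLA4 (2.97% to 4.34%) overlapped. Those of Ankrd37 (4.29% to 8.24% and 8.49% to 10.6%) did not. For Ldha it was 22.0%, 28.4%, 33.9% and 38.2%, against 5.22% to 7.55% in microglia-like cells (unthinned 57.2% to 77.5% and 31.4% to 34.8%).

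The makeup of the endothelial-like class differed between the libraries, which moved with these results. Cluster 1, low in the nuclear RNA Malat1 (mean 4391 CPM against 18773 to 30233 CPM in the other endothelial-like clusters), held 6.40%, 11.2%, 26.2% and 26.4% of the class. Cluster 2 went the other way, at 43.7%, 34.2%, 20.4% and 17.5%, and so did the venous cluster 12, at 16.3%, 13.7%, 6.11% and 6.47%. Cluster 12 is called venous here for Nr2f2, Slc38a5 and Vwf, and it also had the capillary genes Slc16a1, Tfrc, Spock2 and Slc7a5. Cluster 1 also had the highest Ldha of the clusters found in at least 3 libraries, 589 CPM on average (469 to 649, n = 3 libraries). With cluster makeup held fixed, the Ldha ratio was 0.17 under anti-VCAM1 and 0.30 under anti-VLA4, while Adm was at 1.03 and Ankrd37 at 0.98 under anti-VLA4. Leaving cluster 1 out gave 1.07 for Adm and 0.91 for Ankrd37.

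Within single clusters most targets were also higher. Clusters of a class come from the same libraries and are not replicates, and the share of all genes with such counts was not computed. Each of the 5 endothelial-like clusters with at least 50 cells in both libraries had a higher Ankrd37 under anti-VLA4, by 0.55 to 2.09 on the log2 scale, with 5 of 5 intervals above 0. Ldha was higher in 5 of 5, by 0.25 to 0.47, again with all 5 intervals above 0. Bnip3 was higher in 5 of 5 with 3 intervals above 0, and Ddit4 in 5 of 5 with 2 above 0. Under anti-VCAM1, Bnip3, Ddit4 and Ldha were higher in 5 of 5 clusters, with 1 interval above 0 for each. Ankrd37 was higher in 3 of 5 there, from −0.12 to 1.41, with 1 interval above 0.

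Adm did not lie on one side in all clusters. In cluster 0 it was at 17.1, 8.08, 29.0 and 54.6 CPM, from 7, 5, 93 and 268 UMIs, a ratio of 2.62 (1.52 to 4.39) under anti-VLA4. In cluster 3, which was led by the arterial genes Gkn3, Bmx and Vegfc, it was at 12.1, 22.6, 9.15 and 12.9 CPM, from 5, 11, 24 and 47 UMIs. The arterial ratios were −1.22 (−2.39 to −0.13) under anti-VCAM1 and −0.76 (−1.77 to 0.29) under anti-VLA4, and their intervals overlapped those of cluster 0 in neither comparison, although the difference between clusters was not tested. Cluster 2, the venous cluster 12 and cluster 1 had ratios of 0.80, 0.86 and 0.84 under anti-VLA4. Adm was thus higher in 4 of 5 clusters under anti-VLA4, but only 2 intervals lay above 0, that of cluster 0 among them. Under anti-VCAM1 it was higher in 4 of 5, with 1 interval above 0 and 1, the arterial one, below. Without the arterial cluster the class ratio of Adm was 0.84 under anti-VCAM1, past 1.5-fold, and 1.42 under anti-VLA4. Cluster 14, with fewer than 50 isotype cells, was measured in the antibody libraries alone, while the means of the other clusters also took in isotype libraries. Its Adm was at 64.3 and 57.7 CPM, beside at most 54.6 CPM in any library of the other clusters. Its Ankrd37 was at 157 to 222 CPM, also the highest mean, beside up to 160 CPM in cluster 1.

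**Figure D3:**
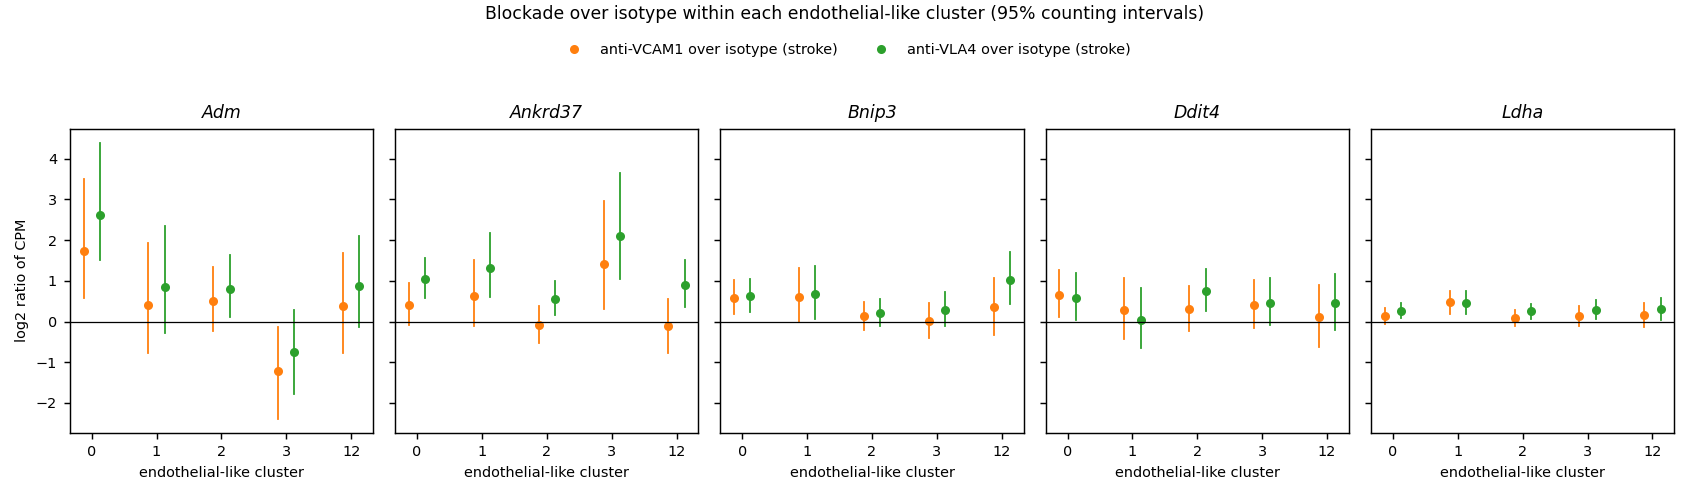
Log2 ratio of 5 targets for each antibody over isotype within each endothelial-like cluster with at least 50 cells in both libraries, with bars for the 95% counting interval. Ankrd37 and Ldha lie above 0 in every cluster under anti-VLA4. The Adm ratio lies above 0 in every cluster but the arterial cluster 3, with 2 of 5 intervals above 0 under anti-VLA4.

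The factors also varied among endothelial-like clusters. Epas1 was highest in the arterial cluster 3, at 1555 CPM on average (1405 to 1712, n = 4 libraries), and lowest in cluster 1, at 926 (897 to 955.4, n = 3). Hif1a was highest in the venous cluster 12, at 168 CPM (151 to 184, n = 4), and lowest in the arterial cluster, at 84.2 (73.4 to 101, n = 4), with no overlap between them. Ankrd37 was lowest in the arterial cluster, at 35.9 CPM (12.3 to 55.8, n = 4).

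In microglia-like cells the antibodies went with smaller differences. Ddit4 was at 6.13 CPM in stroke with isotype and 9.94 CPM with anti-VCAM1, a ratio of 0.62 (0.21 to 1.19). It was the 1 of 7 measured members past 1.5-fold, where 1.13% of 11164 genes passed upward and 1.09% downward. It rested on 57 and 100 UMIs and was at 0.09 after thinning to 1000 UMIs a cell. Bnip3 was at 0.29 (0.05 to 0.56) and Ldha at 0.23 (0.09 to 0.37) under anti-VCAM1. Under anti-VLA4, Pdk1 was at 0.25 (0.11 to 0.39), Ldha at 0.15 (0.02 to 0.29) and Hif1a at −0.16 (−0.26 to −0.06). Thinning turned the 2 Ldha ratios to −0.18 and −0.21. The members' medians were 0.23 and 0.16, beside 0.03 and 0.06 over all genes.

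Epas1 was the 1 of 9 measured members past 1.5-fold in microglia-like cells under anti-VLA4, where 1.48% of 11392 genes passed upward and 1.94% downward. It had 8 UMIs in stroke with isotype and 66 with anti-VLA4, a ratio of 1.67 (1.46 to 3.79). Here too the pseudocount lowers the ratio and does not enter the interval. The summed level of the 10 endothelial markers in the same cells was 41.6, 37.0, 88.4 and 104.0 CPM. Without cells holding 2 or more UMIs of those markers the ratio was 1.36, and when cells were classed 1 by 1 from their markers it was 0.45. Border macrophage-like cells showed the same more steeply, with Epas1 at 1.11, 1.65, 17.6 and 126 CPM beside endothelial markers at 55.5, 44.5, 347 and 1960 CPM. There the anti-VLA4 ratio was 5.58, from 2 and 67 UMIs, and it was 1.14 without the cells holding endothelial markers and −0.19 when cells were classed 1 by 1. In T cell-like cells Epas1 was at 0.67 under anti-VLA4, with an interval on both sides of no change. It was at −0.56 without cells holding markers of the other class. The part of endothelial RNA in these Epas1 values was not tested further. Hif1a in T cell-like cells under anti-VLA4 was at −0.70 (−1.08 to −0.35), past 1.5-fold in 11 of 12 settings. In that comparison 14.0% of 5630 genes passed either way. Hif1a in border macrophage-like cells under anti-VCAM1 was at −0.61 (−1.27 to −0.005), from 126 and 27 UMIs. There 14.3% of 4807 passed.

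Among microglia-like clusters, cluster 11 stood apart. It was led by Cox6a2, Fabp5, Cst7 and Apoe, the last 3 being genes of the disease-associated state, and had the highest Hif1a, at 225 CPM (221 to 229, n = 3 libraries), against 106 to 179 CPM on average in the other 6 clusters measured. Its Ldha was also the highest, at 137 CPM (122 to 155, n = 3), and so was its Egln3, at 7.03 CPM (5.76 to 7.68, n = 3). Its Pdk1 was the lowest, at 44.9 CPM (39.5 to 50.5, n = 3). Pdk1 was highest in cluster 7, at 115 CPM (92.6 to 132, n = 4), where Ldha was lowest, at 24.8 CPM (14.6 to 36.6, n = 4). Clusters 7 and 8 had a Malat1 level of 55138 and 57668 CPM on average, against 19338 to 30207 CPM in the others. Cluster 11 held 2.02% of microglia-like cells in sham with isotype and 8.24%, 9.76% and 12.4% in the others. Within clusters, Hif1a was higher after stroke in 5 of 6, from −0.11 to 0.65, with 1 interval above 0, that of cluster 4 at 0.45 (0.23 to 0.67). Cluster 11 had too few sham cells to enter.

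**Figure D4:**
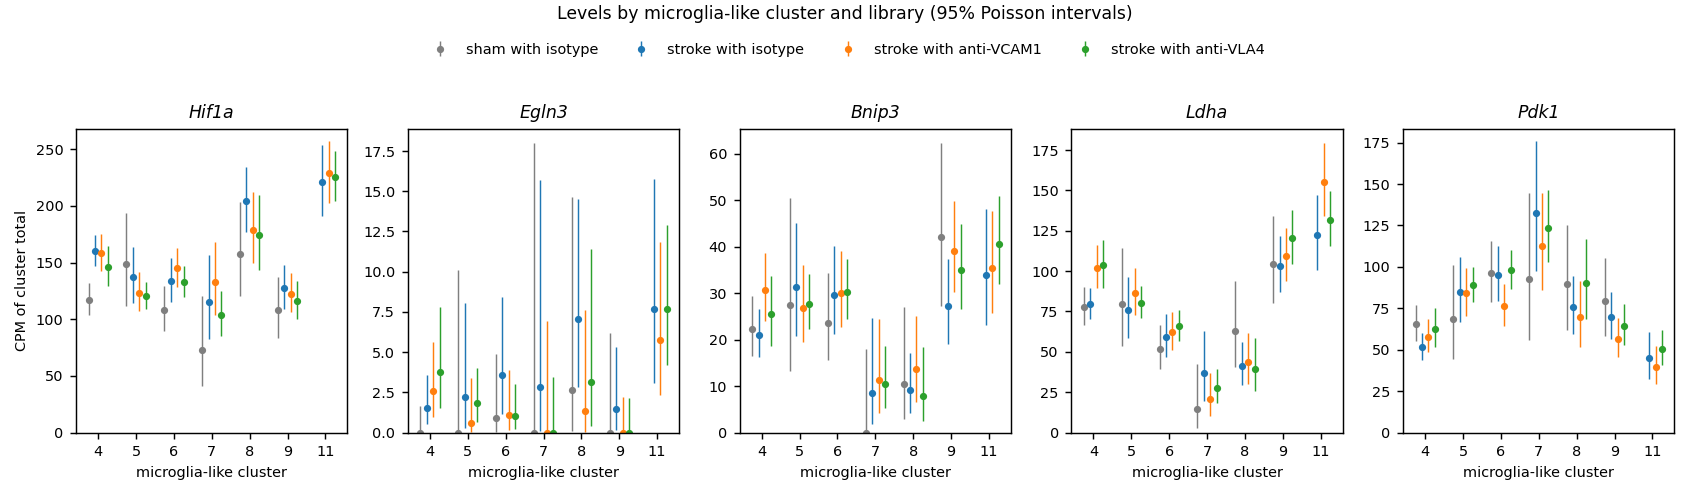
Level (CPM of the cluster total, linear axis from 0) of 5 members by microglia-like cluster, with 1 point per library in 4 colours and bars for the 95% Poisson interval. Cluster 11 has the highest Hif1a and Ldha and the lowest Pdk1 in each library shown.

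Other genes of the pathway were taken from lists chosen for their textbook roles. Of 25 glycolytic and metabolic HIF targets in endothelial-like cells, 1 of 17 measured passed 1.5-fold higher after stroke and none lower: Eno1 (enolase), at 92.4 and 139 CPM, a ratio of 0.59 (0.35 to 0.83). Pgk1 was at 0.36 (0.02 to 0.72), and the list's median was 0.22 beside −0.04 over all genes. Under anti-VCAM1, 1 of 19 passed higher and none lower, with a median of 0.13: Ndufa4l2, a gene of pericytes, from 59 UMIs. Pericyte markers in endothelial-like cells summed to 120, 144, 245 and 260 CPM. Under anti-VLA4, 2 of 22 passed higher and 1 lower, and 19 of 22 lay above 0, beside 43.1% of all genes tested, with a median of 0.22. The span trend was not removed for this list, and the median ratio in the shortest bin of span was also 0.22. Aldoa (aldolase) was at 0.38 (0.28 to 0.49) and Gpi1 (glucose phosphate isomerase) at 0.43 (0.28 to 0.59). The 2 that passed higher, Ndufa4l2 and Slc16a3, and the 1 lower, Hk2, had 56 to 76 UMIs each and are named because the count is small. In microglia-like cells after stroke 1 of 21 passed, again Eno1, at 49.0 and 78.3 CPM, a ratio of 0.67 (0.47 to 0.89), and the glucose transporter gene Slc2a1 was at 0.51 (0.31 to 0.73). None of 21 passed under either antibody in microglia-like cells.

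Of 36 other HIF targets, 35 were in the tables, and none passed in endothelial-like cells in any comparison, of 24, 26 and 26 measured. Their medians were −0.12, −0.02 and −0.09. Of the 26 measured under each antibody, 12 lay above 0 in each comparison. The span trend was not removed for this list. Kdm3a, a histone demethylase, was at −0.50 (−0.75 to −0.26) and −0.54 (−0.79 to −0.31) under anti-VCAM1 and anti-VLA4, opposite in sign to the ratios of Adm and Ankrd37. Mif was at 0.40 (0.20 to 0.60) under anti-VCAM1, the same sign as those 2 genes. Tfrc, the transferrin receptor, was at −0.57 (−0.68 to −0.46) under anti-VLA4. Vegfa, the best known HIF target, had 2, 2, 5 and 8 UMIs in endothelial-like cells. In microglia-like cells 2 of 20 passed higher after stroke, Edn1 and Flt1, from 124 and 75 UMIs, and Flt1 is one of the endothelial markers. Under anti-VLA4, 1 of 22 passed higher, also Flt1. Under anti-VCAM1, 1 of 20 passed higher, Flt1 again, and Hmox1 (haem oxygenase 1) was at −0.57 (−0.73 to −0.43).

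Among 15 partners and regulators of the factors, 13 were measured in each comparison. In endothelial-like cells 1 passed lower after stroke, Siah2 from 53 UMIs, and none under either antibody. Arnt, the partner of both factors, was at −0.36 (−0.64 to −0.10), −0.42 (−0.66 to −0.20) and −0.35 (−0.57 to −0.13). In microglia-like cells 2 passed lower after stroke: Cited2, an inhibitor of the factors' coactivator binding, at 190 and 114 CPM and −0.74 (−0.87 to −0.62), and Siah2, a ubiquitin ligase that targets hydroxylases, at −0.62 (−0.96 to −0.33). None passed there under either antibody. Of the adrenomedullin receptor genes none of 4 measured passed in endothelial-like cells. Calcrl, the receptor itself, was at −0.21 (−0.40 to −0.02), −0.39 (−0.54 to −0.23) and −0.38 (−0.53 to −0.23), and Ramp2, its coreceptor in vessels, was at −0.12 after stroke and 0.32 (0.26 to 0.38) under anti-VCAM1. In microglia-like cells none of 2 passed after stroke and 1 of 3 passed higher under each antibody, Ramp2, from 66 and 98 UMIs. Ramp2 was at 959 CPM in endothelial-like cells of stroke with isotype. Endothelial markers in the microglia-like cells were also higher in both blockade libraries, at 88.4 and 104 CPM against 37.0 in stroke with isotype. The part of endothelial RNA in these Ramp2 values was not tested.

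Ddit4 is also induced by glucocorticoids and by the integrated stress response, and enzymatic dissociation induces immediate early genes, so those lists are set beside it. In endothelial-like cells the glucocorticoid list had none of 13 past 1.5-fold after stroke, 1 higher (Arrdc2) and 3 lower (Errfi1, Fkbp5 and Zbtb16) of 14 under anti-VCAM1, and 1 higher (Arrdc2) and 2 lower (Errfi1 and Fkbp5) of 15 under anti-VLA4, with medians of 0.01, 0.11 and 0.13. The integrated stress list had 1 of 8 lower after stroke, Ppp1r15a, and none of 9 under either antibody, with medians of −0.04, 0.14 and 0.14. The dissociation list had 6 lower of 20 after stroke, 2 lower under anti-VCAM1 (Fos and Fosb), and 4 higher (Dnajb1, Hspa1a, Ier3 and Socs3) and 2 lower (again Fos and Fosb) under anti-VLA4. Its medians, −0.44, 0.24 and 0.24, moved with those of the members under the antibodies, and Hspa1a was at 0.81 (0.67 to 0.95) under anti-VLA4. In microglia-like cells its medians were −0.33, −0.42 and −0.53, with 2 higher (Hspa1a and Hspa1b) and 1 lower (Zfp36) of 20 after stroke, 5 lower under anti-VCAM1 (Dnajb1, Fos, Fosb, Klf2 and Klf4) and 7 lower under anti-VLA4. There the glucocorticoid list had none of 12 past after stroke, 1 of 12 higher under anti-VCAM1 (Cdkn1a) and 1 of 12 lower under anti-VLA4 (Nfkbia). The integrated stress list had 1 of 8 lower after stroke, Atf4 at −0.65 (−0.85 to −0.47), and none of 8 under either antibody. Haemoglobin made up 0.0274%, 1.29%, 0.324% and 0.496% of endothelial-like UMIs, with 93.9% to 99.8% of it in 10 cells of each library. The part of cluster makeup, gene span and dissociation in these differences was not tested beyond the values given.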

How the data were processed

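The authors deposited unnormalized UMI counts for each gene and barcode. Per the file headers they came from Cell Ranger 7.0.1. The submitters' processing notes list Cell Ranger 6.0.0, Seurat 4.3.0.1 and the builds mm10 and GRCh38, so the version differs from that in the headers. Whether introns were counted and whether strand was used are not given in the sources used here. Chromium 3' chemistry (v3.1) was used, for a target of 10000 cells, per the labels' protocols, and the stained fractions collected are not stated there.

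Cells were kept with at least 500 UMIs, 200 genes and at most 10% mitochondrial UMIs. Scrublet (expected rate 0.05) marked 11, 24, 63 and 124 doublets, which were left out. Total UMIs in kept cells were 9857631, 16805668, 24387573 and 33389282. Clustering used scanpy 1.11.5 and leidenalg 0.10.2 (2000 variable genes, 30 components, 15 neighbours, resolution 1), without the members and lists, and with no batch integration. It gave 22 clusters. To be named, a cluster needed at least 3 detected markers, fewer than 5 of any second class, and UMIs that were not low. It also needed that no other class led its top 10 genes. Counting arterial genes as endothelial in that check, which named cluster 3 (13.2%, 14.0%, 17.1% and 18.8% of endothelial-like cells, with the neuron marker Stmn2 among its top genes), was decided with the clusters in view. No name was given to clusters 15 and 16.

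Counts were summed per class and library. CPM has exact Poisson intervals, ratios have intervals from the conditional binomial, with no pseudocount, and shares have exact Clopper-Pearson intervals, at 95%. UMIs are deduplicated molecules, and the intervals cover counting error only. With 1 library per group no p-value was computed. Ratios and intervals were run on simulated Poisson counts. These hold no variation between cells or libraries, so they check the arithmetic only. Python 3.11.15 ran scipy 1.17.1 and numpy 2.4.6, and R 4.3.3 ran edgeR 4.0.16 for TMM factors only. Alternatives covered scaling, thinning, filters, doublets, resolution, naming, makeup, single cells, pseudocount and thresholds. Those on shared barcodes, cluster 1, cluster 3, cells with markers of the other class and gene span were chosen after seeing the data.

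The members and lists were chosen with earlier results of these data known. Named genes were all members, and of each list up to 2 genes per class and comparison with the largest ratio among those with at least 200 UMIs. Others, such as Vegfa, were named after their values were seen. The result of 1 gene of the other HIF targets is not reported here. The GENCODE M21 annotation (GRCm38) gave the span of a gene, with 99.6% of IDs matched. It lists 2 pseudogenes named after Ldha, whose reads cannot be told apart with certainty. Genes on the same strand overlap Hif1a and Epas1, and genes on the other strand overlap Hif1a, Bnip3, Ankrd37 and Adm.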

Additional observations from a re-analysis of the deposited data

How the results depend on the processing

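No paired analysis was possible because each group has 1 library. Of the ratios of single members recomputed under alternatives, 52 of 894 changed sign. Of the ratios past 1.5-fold with an interval on one side of 0, 1 changed sign: Epas1 in border macrophage-like cells under anti-VLA4, to −0.19 when cells were classed 1 by 1 from their markers. Adm and Ankrd37 in endothelial-like cells under anti-VLA4 were past 1.5-fold in 14 of 14 settings, at 0.80 to 1.42 and 0.73 to 1.10. Hif1a in microglia-like cells after stroke was at 0.35 to 0.66 in 12 settings. Ddit4 in microglia-like cells under anti-VCAM1 passed in 9 of 12.

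Counts of members past 1.5-fold changed as follows. For endothelial-like cells under anti-VCAM1 the count of 0 became 1 with TMM scaling, without the highest cell of each library and without the arterial cluster, and 3 after thinning. Under anti-VLA4 the count of 2 became 4 with TMM scaling, and the median of 0.43 became 0.23 with the span trend removed. For microglia-like cells after stroke the count of 0 became 2 after thinning and 1 with no UMI filter. Under anti-VCAM1 the count of 1 became 0 after thinning, without cells holding markers of the other class, with at least 200 UMIs and at 2-fold, 2 with doublets kept and 3 with no UMI filter. Under anti-VLA4 the count of 1 became 2 after thinning, 3 with doublets kept, and 0 when cells were classed singly and with at least 200 UMIs, and the median of 0.16 became 0.43 after thinning. The cause of these shifts was not tested, except that a filter changes which members are measured. Egln3 and Adm had the fewest UMIs over all kept cells, 118 and 1133, and pooled mice leave no measure of the spread between animals.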

Other observations

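Cells of the 2 unnamed clusters entered no comparison. Cluster 15 carried pericyte and endothelial markers together, and only the antibody libraries held at least 20 of its cells, 117 with anti-VCAM1 and 180 with anti-VLA4. Its Epas1 was at 1051 and 1115 CPM, Ldha at 485 and 499 CPM, Ankrd37 at 81.3 and 101 CPM and Bnip3 at 131 and 103 CPM. Adm was at 21.3 CPM (12.2 to 34.6) in the anti-VCAM1 library. In the anti-VLA4 library it was at 45.8 CPM (34.7 to 59.3), and these intervals did not overlap.

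Cluster 16, led by Ifitm6 and Cd209a with monocyte and dendritic markers, held 47, 108, 53 and 27 cells. Its Hif1a was at 89.8, 116, 65.6 and 88.0 CPM. Ldha was at 145, 185, 233 and 236 CPM, lowest in sham with isotype (115 to 180) and with an interval apart from that of anti-VCAM1 (190 to 283). Adm had no UMI in any of the 4 libraries there.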
